A study of Mus musculus with 29 samples.

Results

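Rod photoreceptors of the adult mouse retina had 2390 regions of accessible chromatin that were not called accessible in cones or bipolar cells. They were chosen from the 110715 regions of 201 bp in which the authors compared accessibility by ATAC-seq, an assay in which a transposase inserts sequencing adapters into exposed DNA. A population was taken as open where the centre of a region lay in a peak of both of its libraries and as closed where it lay in a peak of neither. The 2390 regions were open in rods and closed in blue and green cones, in bipolar cells sorted as a whole (pan-BC) and in their ON and OFF classes (ON-BC and OFF-BC), and made up 2.16% of all regions and 6.06% of the 39411 regions open in rods. Because these peaks chose the regions, their ATAC-seq levels are given as a description with no test. RNA levels, position, sequence and the peaks of 2 libraries of double-sorted green cones played no part in the choice.

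Rods detect dim light through a visual pigment that drives the G protein transducin, a cGMP phosphodiesterase and a cGMP-gated channel in the outer segment. The leucine zipper factor NRL directs photoreceptor precursors to the rod fate together with the nuclear receptor NR2E3, which represses cone genes, while the homeodomain factor CRX acts in rods and cones and OTX2 acts in photoreceptors and bipolar cells. Rod nuclei of the mouse are unusual in that their heterochromatin is packed at the centre, and much of their chromatin is condensed.

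Rods were sorted from Nrl-eGFP mice, in which GFP marks rods, and green cones from Opn1mw-GFP mice. Blue cones were photoreceptors of Nrl-eGFP;NrlKO mice, in which the loss of NRL turns cells that would be rods into cones that express *Opn1sw*. They are therefore a mutant stand-in for native blue cones. The bipolar cells came from Otx2-GFP+/-; Grm6-YFP+/+ mice, except the pan-BC RNA libraries, which were from Otx2-GFP+/- mice, so that all bipolar groups carried a GFP insert at the end of 1 copy of *Otx2*, and YFP under the *Grm6* promoter marked ON-BC. The labels and the tables of the study disagree on whether the mice of the pan-BC ATAC-seq libraries carried this YFP. Photoreceptor libraries were from postnatal day 56 and had been made for previous work of this laboratory, and bipolar libraries were from day 42 to 48, so in every comparison of rods with bipolar cells the cell class, the study and the age cannot be told apart. OFF-BC were sorted a second time, all other groups of the main comparison were sorted once, and retinas of several animals were pooled for each bipolar ATAC-seq library. There were 2 ATAC-seq libraries per population and 3 RNA-seq libraries each from rods, blue cones, pan-BC, ON-BC and OFF-BC.

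Reads counted in regions ranged from 4176776 to 12345845 per ATAC-seq library, with 9665199 and 10890548 in rods, and reads counted in genes ranged from 12329548 to 26266746 per RNA-seq library. Peak numbers ranged from 35974 to 88514 in the 12 libraries used by the rule, with 37954 and 41512 in rods. Of the targeted gene of the mutant, *Nrl*, rods held 11476, 16599 and 14469 normalized reads and blue cones 657, 764 and 486, and counts per gene do not show which stretch of it was deleted. The labelled cell types were checked on marker RNAs. The summed level of 7 rod markers was 1791940 to 2464530 normalized reads in the rod libraries, against 13639 to 14829 for 6 cone markers, 1458 to 1925 for 6 bipolar markers, 755 to 1125 for 4 Müller glia markers and 0 to 15.4 for 4 markers of amacrine and horizontal cells. The summed level of the ganglion cell markers had a mean of 18.68 normalized reads in rods, most of it from *Rbpms* at a mean of 17.03. Another of these markers, *Slc17a6*, was at 0 in all 3 rod libraries, as was *Lhx1* of horizontal cells. In pan-BC the mean sum was 38539 for rod markers and 130596 for cone markers. Of the latter, *Gnb3*, which bipolar cells also express, held 76280.5. The part of these rod and cone RNAs in the comparisons with pan-BC was not tested. In such sorted samples fewer cells of a type and less RNA per cell cannot be told apart.

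The sequences of 7 of the regions are shown, taken from the RefSeq copy of GRCm38 on the plus strand. They are drawn from the 5 regions with the highest rod level and the 5 highest beside genes of phototransduction or photoreceptor regulation, leaving out those that overlap an annotated UTR, and they show how differently regions of high level are built. Each is in lower case, and capitals mark matches to the homeodomain core TAATCC, the core of the MAF recognition element TGCTGA, and the nuclear receptor cores AGGTCA and AAGTCA, on either strand.
Trappc9, 3.26 kb from the start site, chr15:73064362-73064562: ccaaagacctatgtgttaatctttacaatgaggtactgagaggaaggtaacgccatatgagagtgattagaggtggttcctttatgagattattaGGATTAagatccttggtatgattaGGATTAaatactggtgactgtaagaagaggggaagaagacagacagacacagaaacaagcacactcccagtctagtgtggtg
Slco4a1, in an intron, chr2:180457358-180457558: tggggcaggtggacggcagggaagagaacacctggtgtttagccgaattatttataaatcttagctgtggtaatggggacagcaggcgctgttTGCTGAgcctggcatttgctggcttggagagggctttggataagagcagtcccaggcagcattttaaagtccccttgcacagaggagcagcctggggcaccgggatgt
Gm20605, 1.48 kb from the start site, chr5:137627540-137627740: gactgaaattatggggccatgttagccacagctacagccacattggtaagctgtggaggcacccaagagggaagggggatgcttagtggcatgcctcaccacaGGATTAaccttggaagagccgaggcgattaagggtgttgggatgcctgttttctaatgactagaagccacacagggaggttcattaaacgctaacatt
Prph2, in an intron of the neighbour Ubr2, chr17:46931111-46931311: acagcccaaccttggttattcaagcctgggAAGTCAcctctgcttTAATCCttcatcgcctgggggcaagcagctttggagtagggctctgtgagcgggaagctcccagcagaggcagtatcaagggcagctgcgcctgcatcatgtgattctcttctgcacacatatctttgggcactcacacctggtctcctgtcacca
Crx, 1.04 kb from the start site, chr7:15880893-15881093: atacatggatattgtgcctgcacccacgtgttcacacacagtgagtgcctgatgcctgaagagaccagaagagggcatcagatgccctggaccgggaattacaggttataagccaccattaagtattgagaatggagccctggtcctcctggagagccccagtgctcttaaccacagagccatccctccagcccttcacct
Rgs9, in an intron, chr11:109294432-109294632: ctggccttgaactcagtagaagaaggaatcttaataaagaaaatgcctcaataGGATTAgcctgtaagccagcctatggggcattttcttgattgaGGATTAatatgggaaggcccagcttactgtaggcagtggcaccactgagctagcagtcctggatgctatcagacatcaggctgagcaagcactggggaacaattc
Prph2, in an intron, chr17:46918825-46919025: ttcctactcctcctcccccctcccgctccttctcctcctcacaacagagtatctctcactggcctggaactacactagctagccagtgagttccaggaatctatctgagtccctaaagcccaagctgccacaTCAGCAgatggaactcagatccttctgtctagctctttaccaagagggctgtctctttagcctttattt

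The regions beside *Trappc9* and *Rgs9* each held a pair of TAATCC matches on the minus strand, at positions 96 and 120 and at positions 54 and 97 counted from the first base. The region beside *Gm20605* held 1 at position 104, close to its centre. The region in *Slco4a1* held a TGCTGA at position 94, and the intronic *Prph2* region held 1 on the minus strand at position 133. The *Prph2* region inside *Ubr2* held an AAGTCA at position 31 and a TAATCC at position 46. The region beside *Crx* held none of these words. A match is a description of the letters and not a site of binding.

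Across the 2390 regions, TAATCC, the core bound by CRX and OTX2, was found in 881 (36.9%, 95% Wilson interval 35.0 to 38.8%), against 21.8% of all 110715 regions and 21.1% of all regions open in rods. It was found in 47.1% of the 1526 regions open in rods and both cone types but in no bipolar population, in 40.0% of the 655 regions open in both cone types alone and in 10.2% of the 18233 regions open in all 6 populations. The rod-only regions thus held it more often than the table as a whole and less often than the photoreceptor-shared regions. Since promoters are GC-rich and few rod-only regions are promoters, the shares were also taken outside promoters, where they were 37.2% for rod-only regions, 24.6% for all regions and 47.9% for photoreceptor-shared regions. In 158 rod-only regions (6.61%) it occurred at least 2 times, against 3.16% of all regions.

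The core of the MAF recognition element, to which NRL binds, was present in 21.2% of rod-only regions (506, interval 19.6 to 22.9%), 17.6% of photoreceptor-shared regions, 18.5% of regions of both cones alone and 17.9% of all regions. Outside promoters the shares were 21.1% (interval 19.5 to 22.8%) in rod-only regions, 19.2% (interval 18.9 to 19.4%) in all regions and 17.5% in photoreceptor-shared regions. The nuclear receptor core AGGTCA was in 23.3% (interval 21.6 to 25.0%) against 15.7% of all regions and 22.0% of photoreceptor-shared regions, and AAGTCA was in 11.2% against 9.77%. Both TAATCC and AGGTCA were in 224 rod-only regions (9.37%, against 4.01% of all regions), both TAATCC and TGCTGA in 153 (6.40%, against 3.98%), and 919 (38.5%, against 55.1%) held none of the 3 words.

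Most other words were no more frequent than in all regions. The homeodomain cores TAATTA and TAATTG were in 5.06% and 5.31% of rod-only regions, against 5.22% and 6.91% of all regions and 14.4% and 13.4% of the regions of both cones alone. The E-box CANNTG was in 67.0% against 68.9%, and its neurogenic form CAGATG, every match of which also counts as CANNTG, was in 15.2% against 22.4%. The AP-1 word TGANTCA was in 5.56% against 7.12%, and in 16.03% of the regions of both cones alone. The SP and KLF word GGGCGG, frequent at promoters, was in 6.99% against 17.0%, and outside promoters in 6.63% against 9.36%. The MEF2 and CTCF motifs were in 3.97% and 2.59%, against 3.34% and 5.10% of all regions. CTCF was in 0.328% of photoreceptor-shared regions and 0.153% of regions of both cones alone, and among rod-only regions its share was 4%, 3.53%, 1.68% and 1.17% over 4 groups of nearly equal size from the weakest to the strongest rod level. All words were searched on both strands, and no region counted more than once for a word.

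TAATCC was concentrated at the middle of the regions. Among rod-only regions it reached 9.37 matches per 100 regions in the 20 bp before the centre and was at 0.837 in the outermost bin on that side, while over all regions the central bin held 4.61. TGCTGA had no such peak, with 3.01 matches per 100 rod-only regions in the same central bin. AGGTCA lay between, at 3.97 in the central bin against 2.09 over all regions.

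**Figure D1:**
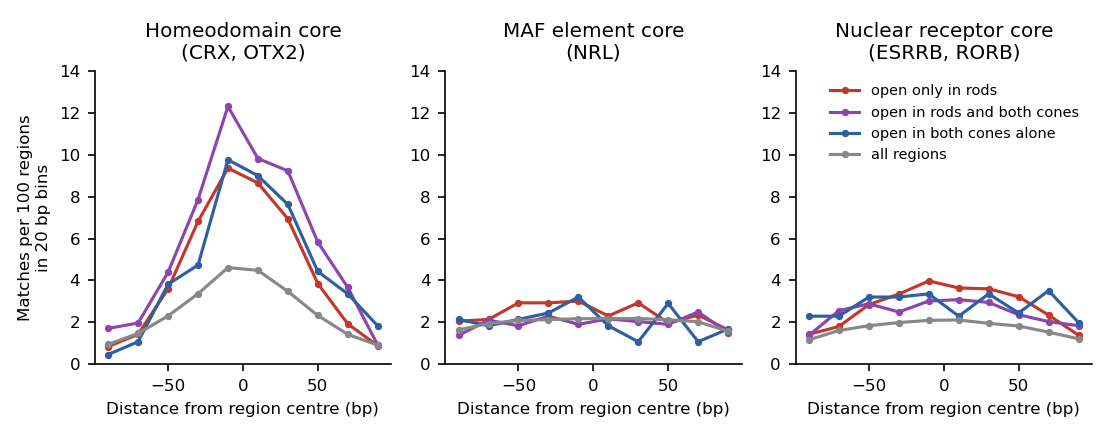
Matches per 100 regions in 20 bp bins, against the distance from the region centre in bp, for the homeodomain core (left), the MAF element core (middle) and the nuclear receptor core AGGTCA type (right), in rod-only regions, photoreceptor-shared regions, regions of both cones alone and all regions. The homeodomain core peaks at the centre in all 4 sets, at 9.37 in rod-only regions and 4.61 in all regions, where the MAF core stands at 3.01 and 2.17.

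The level of the regions, given in normalized ATAC-seq reads, was moderate in rods. The median over the 2390 regions was 28.0 in rod library 1 and 28.5 in rod library 2, with quartiles of 20.2 to 42.1 and 20.3 to 44.0 and highest values of 280 and 361. Elsewhere the medians were 7.77 and 7.23 (blue cones), 10.8 and 11.3 (green cones), 4.80 and 3.99 (pan-BC), 4.48 and 2.93 (ON-BC), and 2.69 and 5.84 (OFF-BC). Green cones thus held the highest levels outside rods and bipolar cells the lowest. These medians rest on few reads, 36 and 42 in the rod libraries and between 2 and 14 in the others.

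Both rod libraries exceeded all 10 others in 2112 of the 2390 regions, a pattern also present in 18% of all regions (19950 of 110715), and since peaks in these libraries chose the regions nothing is read from it. The ratio of the rod mean to the highest mean of another population had a median of 2.45 (quartiles 1.78 and 3.38, range 0.651 to 13.3). It was at least 5 in 179 regions, under 2 in 812 and under 1 in 39, so that closed by peak call did not mean without reads. The population with the highest level after rods was green cones in 1402 regions, blue cones in 492, OFF-BC in 197, ON-BC in 176 and pan-BC in 123. Compared with other accessible regions of rods these were weak. Their median rod mean was 27.7, against 81.3 over all regions open in rods, 76.0 in photoreceptor-shared regions and 201 in regions open in all 6 populations.

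**Figure D2:**
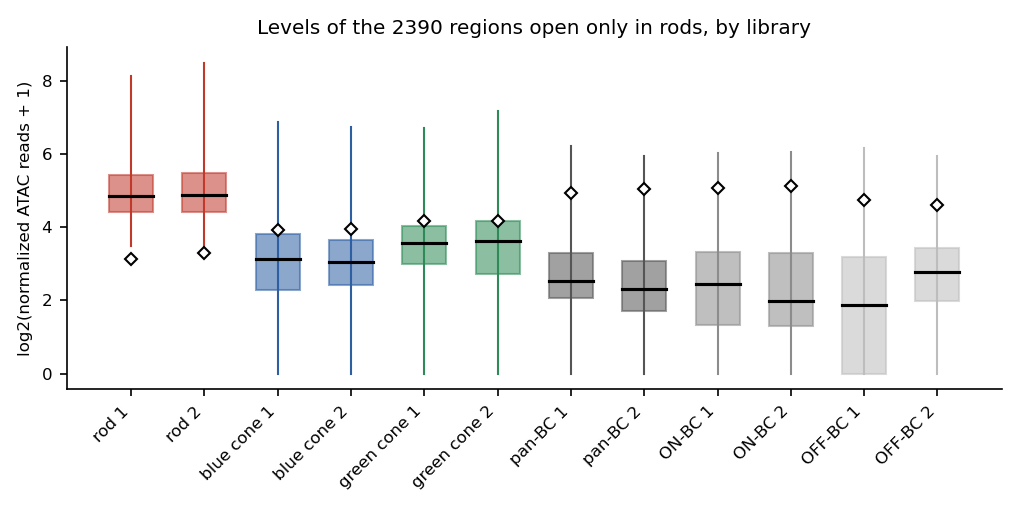
Levels of the 2390 rod-only regions in each of the 12 ATAC-seq libraries as log2(normalized reads + 1), where boxes span the quartiles, black lines are medians, thin lines reach the lowest and highest region and diamonds give the median of all 110715 regions. The rod boxes lie above the boxes of the other populations, green cones come next, and the medians of all regions lie below the rod boxes and above the boxes' medians in every other library.

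Many regions lay close to the limits of the rule. The lower of the 2 rod peak values, as the −log10 q of the peak that contains the region, had a median of 8.89 (quartiles 6.12 and 13.9). The weakest region inside, near *Trib1* at chr15:59618127-59618327, had 1.30 and 5.12 in the 2 libraries, with 15.6 and 14.2 normalized reads in rods and 18.1 in the highest other library. Just outside was a region near *Gm20346* at chr9:62374310-62374510, with 38.2 and 31.8 reads in rods, which was lost through a peak of −log10 q 1.34 in blue cone library 2. In all 4763 regions missed the rule by a single library. Of these, 3023 lacked a peak in 1 rod library (2138 in library 1 and 885 in library 2). The other 1740 had a peak in 1 library elsewhere, most often green cone library 1 (806) and blue cone library 2 (586). These were the deeper libraries of their types, with 7574103 and 8058443 reads in regions. The shallower ones, with 4176776 and 4572550, accounted for 55 and 59. Both rod libraries (9665199 and 10890548) were deeper than any cone, ON-BC or OFF-BC library. The part of depth in the closed calls was not tested.

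The region with the second highest rod level was the promoter of *Nxnl1*, which encodes rod-derived cone viability factor, at chr8:71566577-71566777, with 255 and 279 in rods, 51.8 to 94.4 in the 4 cone libraries and 8.78 to 25.3 in bipolar cells. Both rod libraries stood above all others, which its choice by peaks and rod level favours.

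The region beside *Trappc9*, a gene of a vesicle tethering complex, had 234 and 237 reads in rods, 47.9 to 81.7 in cones and 0 to 11.9 in bipolar cells. The intronic region of *Slco4a1*, an organic anion transporter gene, had 201 and 250.1 in rods, 11.6 to 55.3 in cones and 2.69 to 40.0 in bipolar cells, and its ratio to the next population, 5.23, was the second highest among the 15 strongest. The region beside *Gm20605* had 216 and 226 in rods but 92.2 to 142 in cones, and its ratio of 1.89 was the lowest of these 15. Further regions lay in the 5′ UTR of *Ppp2r5a*, a subunit gene of protein phosphatase PP2A (208 and 220 in rods, 81.7 to 104 in cones), in an intron of *Rbm20*, a splicing factor gene (190 and 202, with 5.18 to 72.2 in cones), and in an intron of *Sgk1*, a serum- and glucocorticoid-induced kinase gene (174 and 215, with 39.7 to 70.7 in cones). The rest of the 15 were near *Tex264*, *Plcd3*, *Prph2*, *Vkorc1l1*, *Mir124a-1hg*, *Usp38* and *Npat*, with rod means of 179 to 192. In all 15 both rod libraries exceeded every other library. Their choice by peaks and rod level favours this, and it is no separate result. In 14 of the 15 the highest other library was from a cone type. The exception was the region near *Usp38*, where it was ON-BC library 2 (63.0). Close to it was the region in the 3′ UTR of *Rad54l2*, nearest to *Tex264*, with 54.4 in blue cone library 1 and 54.2 in ON-BC library 2.

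**Figure D3:**
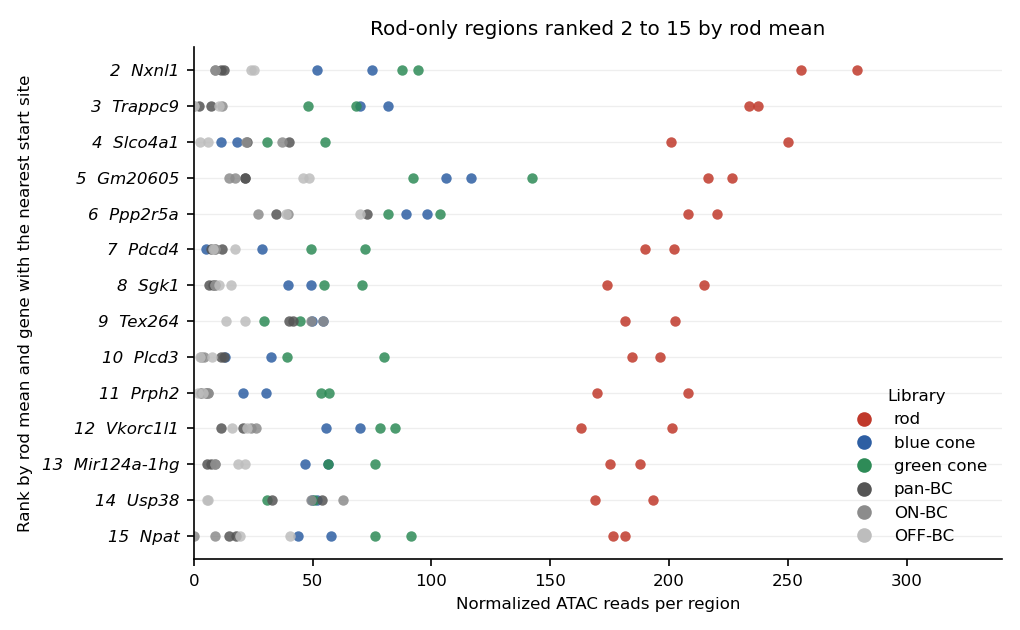
Normalized ATAC-seq reads in each of the 12 libraries for the 14 rod-only regions ranked from 2 to 15 by their rod mean, named by the gene with the nearest start site, where each point is 1 library and colours give the population. The rod points lie at 163 to 279 and all other points at or below 142.

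Of the 42 genes of a list of rod phototransduction and outer segment genes, 13 (31.0%) were the nearest gene of at least 1 rod-only region, and of 25 photoreceptor transcription factor genes 10 (40.0%), against 9.19% of the 20892 genes nearest to any region. No gene of a list of 21 cone genes was, 2 of 24 bipolar genes were (*Nyx* and *Prkca*), and 1 of 19 genes of other retinal cells was (*Pecam1*). The first 2 lists accounted for 41 regions at 23 genes. Genes with rod-only regions had more regions of any kind, at a median of 6 or more against 3 over all genes. The part of this in the shares of the lists was not tested. Regions lay beside genes for 3 successive steps of the cascade, the transducin β subunit gene *Gnb1*, the phosphodiesterase subunit gene *Pde6a* and the channel subunit gene *Cnga1*. No rod-only region was nearest to *Gnat1*, *Pde6b*, *Cngb1* or *Nrl*.

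Among the signalling genes, the intronic region of *Pde6a* 3.90 kb from the start site had 97.3 and 89.4 reads in rods, against 0 and 2.89 in blue and 46.9 and 43.7 in green cones and 0 to 5.84 in bipolar cells. Blue cones were near 0 there and green cones near the middle of the range. The other 3 *Pde6a* regions had rod means of 26.7 to 49.1. In *Cnga1* the stronger of 2 intronic regions, at chr5:72632905-72633105, had 43.6 and 66.4 in rods, against 5.18 and 1.45 in blue and 18.4 and 14.1 in green cones and 0 to 5.39 in bipolar cells. At *Gnb1* a region 7.26 kb upstream had 46.7 and 57.6 in rods and at most 11.5 elsewhere, and 66.7% of its bases were repeat-masked. *Slc24a1*, the rod sodium, potassium and calcium exchanger gene, had a region over a coding exon at chr9:64931160-64931360 with 74.0 and 94.2 in rods and 2.59 to 16.9 elsewhere, a ratio of 5.69 to the next population.

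Of structural and regulatory genes, *Prph2*, which encodes the disc rim protein peripherin-2, had 2 regions. The one 20.7 kb from its start site, in an intron of *Ubr2*, had 170 and 208 in rods, against 20.7 and 30.4 in blue and 56.9 and 53.5 in green cones and 1.95 to 5.97 in bipolar cells. The one in its own intron had 132 and 123 in rods, 25.3 to 52.2 in cones and 0 to 17.6 in bipolar cells. *Rgs9*, which speeds the shut-off of transducin, had 3, the strongest with 156 and 144 in rods but 64.8 to 83.1 in cones. Of the bases of these regions in *Prph2* and *Rgs9*, 52.2% and 57.2% were repeat-masked. *Crx* had a region with 173 and 135 in rods, 23.1 to 48.4 in cones and 8.96 to 32.2 in bipolar cells. The intronic region of *Nr2e3* at chr9:59946835-59947035 had 123 and 131 in rods, against 5.18 and 0 in blue and 48.4 and 9.86 in green cones and 0 to 7.20 in bipolar cells, so that the 2 green cone libraries differed from each other. *Esrrb*, an orphan nuclear receptor gene, had 3 regions with rod means of 12.9 to 30.0, and *Otx2* had 1 at 80.5 kb with 30.4 and 28.5 in rods and 2.59 to 15.6 elsewhere, 62.2% masked. The weakest relative to other cells was an intronic region of *Thrb*, a thyroid hormone receptor gene needed for green cone opsin, with 18.7 and 19.0 in rods and 26.9 and 31.0 in green cones, the lowest ratio of all 2390 regions.

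The rod-only regions lay away from promoters. Only 67 (2.80%, 95% Wilson interval 2.21 to 3.54%) had their centre within 1000 bp upstream or 100 bp downstream of a RefSeq start site, against 31.8% of all regions open in rods, 57.3% of those open in all 6 populations and 14.9% of all regions. The share was 5.83% in photoreceptor-shared regions and 3.05% in regions of both cones alone. By their centre 65.9% lay in introns, 29.4% between genes, 1.88% each in coding exons and 3′ UTRs and 0.460% in 5′ UTRs. For introns the share was 59.5% in photoreceptor-shared regions and 46.3% in all regions. The median distance to a start site was 17779 bp, 1913 lay within 50 kb, and the median GC content was 48.3%, against 50.2% over all regions.

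Repeats took a larger share than elsewhere. In 448 of the 2390 regions (18.7%) over 50% of the bases were masked as repeats in the RefSeq genome, against 3.66% of all regions, 3.88% of regions open in rods, 5.44% of photoreceptor-shared regions and 0.537% of regions open in all 6. For the other populations the same share was taken over the regions open in that population alone. It was 4.38% of 731 for blue cones, 3.25% of 1109 for green cones, 2.76% of 399 for pan-BC, 4.31% of 232 for ON-BC and 1.23% of 487 for OFF-BC. Pan-BC include ON-BC and OFF-BC cells. A region open in one bipolar population alone was thus not called in another that shares its cells, which limits the comparison with these sets. The masked regions had levels like the others, with a median rod mean of 25.8 against 28.1 and a median lower −log10 q of 8.90 against 8.89. Over the same 4 groups of rising rod level the share was 21.3%, 20%, 20.3% and 13.4%. TAATCC was in 42.6% of the masked and 35.5% of the other rod-only regions, and in 34.5% of all masked regions of the table. How reads in repeats were placed by the aligner was not tested.

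**Figure D4:**
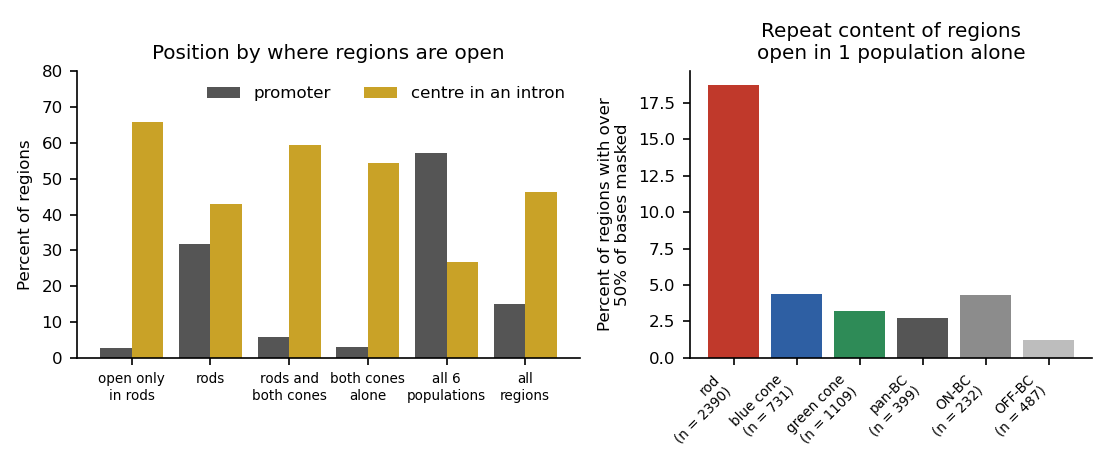
Left, percent of regions at promoters and with their centre in an intron, by where the regions are open. Right, percent of regions with over 50% of bases masked, among the regions open in 1 population alone, where rods reach 18.7% and the other 5 populations stay between 1.23 and 4.38%.

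The double-sorted green cone libraries, with 41824 and 28025 peaks, were not used by the rule and seldom had peaks at these regions. The rule did exclude regions with a peak in single-sorted green cones, so a low share follows in part from the choice. A peak covered the centre of 99 (4.14%) in one and 13 (0.544%) in the other, 108 (4.52%) in either and 4 in both. Either library had a peak at 80.2% of photoreceptor-shared regions, 85.5% of regions of both cones alone, 73.0% of regions open in rods and 43.4% of all regions. Photoreceptor-shared regions and regions of both cones alone were chosen as open in single-sorted green cones. Their high shares thus also follow in part from the choice. None of the 15 strongest regions was among the 108, although single-sorted green cones held 29.6 to 142 reads there.

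Nearest genes were then compared in RNA. The 2390 regions had 1919 nearest genes, of which 1805 were found in the RNA table (75 by an older symbol) and 1512 passed the filter on low counts and were tested, with 1916 regions beside them. These 1512 are the genes that could be tested and not all the genes. A gene was called where limma's test against a 2-fold difference gave an adjusted p below 0.05 over all 14024 genes tested. Both comparisons share the rod libraries.

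Against blue cones, 188 of the 1512 genes (12.4%) were higher in rods and 94 (6.22%) lower, where over all genes 4.63% were higher and 11.3% lower. The median log2 fold change was 0.31, against -0.00 over all genes. For 1012 genes nearest to photoreceptor-shared regions 9.98% were higher and 11.4% lower, for 386 nearest to regions of both cones alone 5.18% and 32.1%, and for 10080 nearest to regions open in all 6 populations 4.70% and 9.26%. Against pan-BC, 424 of the 1512 genes (28.0%) were higher in rods and 240 (15.9%) lower, where over all genes 15.8% were higher and 27.8% lower. The median was 0.44, against -0.21. Genes nearest to photoreceptor-shared regions reached 32.9% and 17.3%. With scaling by library totals alone the counts against pan-BC were 333 higher (22.0%) and 289 lower (19.1%), where over all genes 11.3% were higher and 32.1% lower, and the median of all genes moved to -0.55.

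The share of genes higher in rods was larger where a gene had more rod-only regions. Of genes nearest to 1 region (1213 tested) 9.65% were higher in rods than in blue cones, of those nearest to 2 regions (225) 19.6%, and of those nearest to 3 or more (74) 36.5%, or 27 genes. Against pan-BC the shares were 24.9%, 39.1% and 45.9%. Genes with more rod-only regions also had more regions of any kind, at a median of 6, 12 and 21, against 3 over all genes, and the part of this was not tested. Genes whose strongest region was in the highest of the 4 groups of rod level were higher in rods than in blue cones in 19.7% and than in pan-BC in 36.7% of cases, against 8.04% and 21.2% in the lowest group. A gene with more rod-only regions can more easily have 1 in the highest group, which held 461 tested genes against 311 in the lowest. The part of region number in this difference was not tested. By sequence, 12.4% of genes beside a region with TAATCC and 14.3% of genes beside a region without it were higher in rods than in blue cones. Beside mostly masked regions it was 11.7% of 342 genes.

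**Figure D5:**
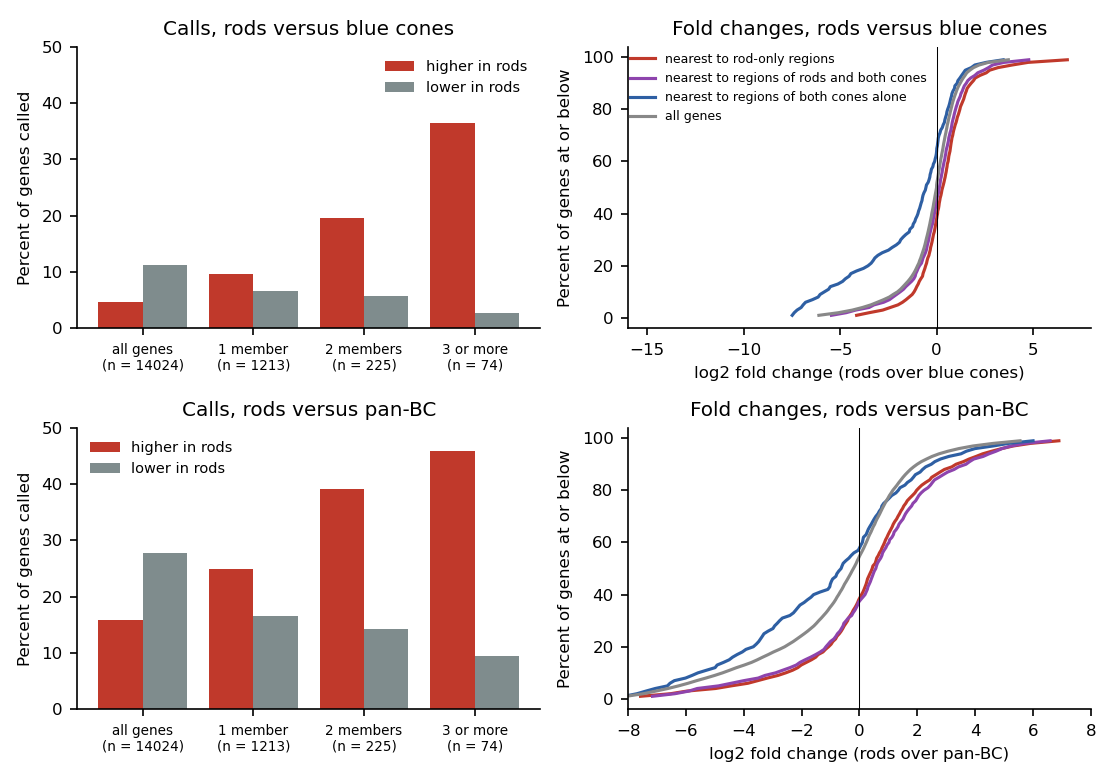
Left, percent of genes called higher (red) or lower (grey) in rods than in blue cones (top) or pan-BC (bottom), for all genes and for genes nearest to 1, 2 or 3 or more rod-only regions. Right, percent of genes at or below each log2 fold change, where genes nearest to rod-only regions (red) have medians of 0.31 and 0.44 and all genes (grey) of -0.00 and -0.21.

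Among the list genes with rod-only regions, 6 of 13 phototransduction genes were higher in rods than in blue cones and 12 of 13 higher than in pan-BC, and none was lower. Among the 29 without such a region the counts were 12 and 28, so that the whole list of 42 had 18 higher and 1 lower than blue cones (*Cdhr1*, a photoreceptor cadherin gene, with a log2 fold change of -1.44) and 40 higher than pan-BC. Medians over the 42 were 1.45 and 5.45. Of the 10 transcription factor genes with regions 2 were higher in rods than in blue cones and 9 than in pan-BC, and of the 24 tested on the whole list 5 were higher (*Nr2e3*, *Nrl*, *Rorb*, *Esrrb* and *Mef2c*) and 2 lower (*Rxrg* and *Sall3*) than blue cones, and 17 were higher and 3 lower (*Sall3*, *Nr1d1* and *Bhlhe40*) than pan-BC. Of the 20 tested cone genes, none of them beside a rod-only region, 0 were higher and 17 lower than in blue cones, with a median of -7.03. Against pan-BC 1 was higher (*Gm11744*) and 12 lower. Pan-BC also held RNA of cone markers, such as *Opn1sw* at a mean of 40399 against 681 in ON-BC. The part of this was not tested. Genes listed here by name for their calls were chosen after their values were seen.

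*Gnb1* held 1129820 to 1617960 normalized RNA reads in rods, 5836 to 6332 in blue cones and 5088 to 5775 in pan-BC, with log2 fold changes of 7.79 ± 0.44 (SE, adjusted p 1.21e-09) over blue cones and 7.95 ± 0.44 (adjusted p 2.52e-10) over pan-BC. *Cnga1* held 41298 to 54715 in rods, 55.5 to 93.3 in blue cones and 333 to 390 in pan-BC (9.19 ± 0.20 over blue cones on the log2 scale). For *Slc24a1* the ranges were 33358 to 51424, 259 to 359 and 384 to 560 (7.12 ± 0.23 and 6.54 ± 0.23). In all 3 genes the rod libraries lay far above both other populations.

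*Pde6a* differed in that blue cones held an intermediate level, at 3713 to 4443 reads against 30866 to 40103 in rods and 138 to 185 in pan-BC, with log2 fold changes of 3.09 ± 0.33 and 7.79 ± 0.33. *Prph2*, *Nxnl1* and *Kcnv2*, a potassium channel subunit gene, were called only against pan-BC, at 5.09, 5.17 and 7.20 on the log2 scale. Their log2 fold changes over blue cones were 1.49 ± 0.40 (adjusted p 0.51), 1.48 ± 0.47 (adjusted p 0.65) and 1.23 ± 0.27 (adjusted p 0.79). In a fit without the ON-BC and OFF-BC libraries *Prph2* and *Nxnl1* were also called over blue cones. *Tulp1*, *Impg2* and *Rgs9* had values of -0.51, -0.35 and 0.81 over blue cones and were called against pan-BC.

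Of the regulators, *Nr2e3* stood at 24669, 39985 and 36497 reads in rods, whereas blue cones held 76.7, 78.9 and 48.8 and pan-BC 162, 235 and 235, with log2 fold changes of 8.93 ± 0.26 and 7.31 ± 0.26. *Esrrb* held 4431 to 5543 in rods, 225 to 329 in blue cones and 28.2 to 63.6 in pan-BC (4.13 ± 0.29 and 6.64 ± 0.29). The other 8 genes with regions were not called against blue cones. *Crx* held 60823 to 71611 in rods, 39867 to 43789 in blue cones and 9272 to 9876 in pan-BC, and was called only over pan-BC (2.76 ± 0.14). *Otx2* held 6796 to 7638 in rods, 6538 to 7420 in blue cones and 9409 to 10646 in pan-BC and was called in neither. *Thrb* and *Prdm1*, which helps to settle photoreceptor identity, were at -0.77 ± 0.16 and -1.38 ± 0.62 over blue cones, with adjusted p values of 1 and 0.993.

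Large log2 fold changes over blue cones among genes nearest to rod-only regions within and outside the lists were those of *Abca13*, an ABC transporter gene, *Fam160a1*, *Cnga1*, *Sh2d1a*, *Nr2e3*, *Glt28d2*, *Gnb1*, *Fndc1* and *Bst1*. *Abca13* stood at 1289, 1438 and 1359 reads in rods, whereas blue cones held 2.26, 0 and 1.48 and pan-BC 1.06, 3.03 and 0, and it had 2 regions close together, in an intron and a coding exon 423 and 424 kb from its start site, with rod means of 30.5 and 20.5. *Sh2d1a*, an adaptor gene best known from lymphocytes, held 2087 to 2239 in rods, 1.52 to 7.52 in blue cones and 12.1 to 18.1 in pan-BC. *Fam160a1* had 4 regions and held 2446 to 2784 in rods, 3.01 to 3.70 in blue cones, 218 to 248 in pan-BC and 2.24 to 15.4 in OFF-BC. *Glt28d2*, *Fndc1* and *Bst1*, an ADP-ribosyl cyclase gene, stood at 8.37, 7.49 and 7.43. Where blue cones or pan-BC held only a few reads, the fold changes depend on the 1 added before the logarithm.

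Over pan-BC the largest were *Abca13* (9.39), *6430562O15Rik* (9.08), *Gulp1* (9.01), *Gnb1* (7.95), *Glb1l2* (7.94), *Pde6a* (7.79), *Nt5e* (7.63), *Nr2e3* (7.31), *Itpr2* (7.22) and *Bst1* (7.20). *Nt5e*, which encodes the surface enzyme CD73, held 10636 to 12856 in rods, 3875 to 4318 in blue cones and 49.4 to 74.5 in pan-BC and was not called against blue cones (1.53 ± 0.30, adjusted p 0.25) unless ON-BC and OFF-BC were left out of the fit. *Gulp1*, an engulfment adaptor gene, held 1759 to 2148, 699 to 967 and 1.01 to 4.89. *Itpr2*, an inositol trisphosphate receptor gene with 3 regions, held 506 to 788, 21.5 to 29.3 and 1.22 to 7.06, and was called in both comparisons.

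The genes with the most regions were *Ext1* with 6 and *Akap6*, *Gm10677*, *Cadm1*, *Ntm* and *Osbp2* with 5 each. All 6 regions of *Ext1*, a heparan sulfate polymerase gene, lay in its introns, 55.2 kb or more from the start site, with rod means of 19.4 to 51.6. Rods held 1223, 1601 and 1411 reads of its RNA, blue cones 116, 104 and 169 and pan-BC 156, 186 and 155 (3.46 ± 0.19 and 3.08 ± 0.19). *Akap6*, a kinase anchoring gene, held 634 to 1204 in rods, 144 to 198 in blue cones and 1459 to 1674 in pan-BC, so that it was called over blue cones (2.23 ± 0.20) while pan-BC held more (-0.96 ± 0.20, adjusted p 0.98). *Cadm1*, an adhesion gene, was called over blue cones (1.98 ± 0.12) and *Osbp2* over pan-BC (1.96 ± 0.10). *Ntm*, also an adhesion gene, was called in neither (-0.66 ± 0.12 and -0.83 ± 0.12), nor was *Dmap1* with 4 regions (0.26 ± 0.13 and -0.11 ± 0.13). *Fhod3*, with 4, was called in both (2.13 ± 0.18 and 1.69 ± 0.18), but not over pan-BC with library totals alone, and *Sgip1*, with 4, only over pan-BC (1.83 ± 0.09).

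Of genes beside the strongest regions, *Sgk1* (2.68 ± 0.29 and 7.11 ± 0.29), *Slco4a1* (2.12 ± 0.26 and 4.68 ± 0.26) and *Plcd3*, a phospholipase C gene (1.87 ± 0.13 and 1.72 ± 0.13), were called in both comparisons. *Sgk1* held 35255 to 38639 reads in rods, 5382 to 6199 in blue cones and 178 to 330 in pan-BC. *Trappc9*, *Gm20605*, *Ppp2r5a*, *Tex264*, *Vkorc1l1*, *Usp38* and *Npat* were called in neither, except that *Usp38* was called over pan-BC (1.32) without ON-BC and OFF-BC in the fit. Where a strong region lay inside another gene, that gene was also looked up, and *Rbm20* (2.51 ± 0.33 and 4.11 ± 0.33) and *Ubr2* (1.53 ± 0.12 and 1.35 ± 0.12) were called in both, while *Prph2* was called only over pan-BC and *Pdcd4* in neither. Without ON-BC and OFF-BC in the fit *Pdcd4* was called lower than in blue cones (-1.42).

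A rod-only region did not always come with more RNA in rods. *Rgl3* held 9.73 to 15.4 reads in rods and 1955 to 2146 in blue cones, *Olfm1*, a neuronal olfactomedin gene, 18.4 to 21.5 and 2495 to 2760, and *Foxp4*, a forkhead factor gene, 3.24 to 5.12 and 380 to 454. The other genes with the lowest values were *Pcdhac2* (-7.14), *Itpr3* (-6.70), *Parp9* (-6.10), *Slc26a4*, *Cabp1* (-5.09), *Lmna* (-4.96), which encodes the A-type lamins, and *Mdga1* (-4.73). *Slc26a4* was at 0 in all 3 rod libraries and at 29.6 to 63.7 in blue cones. Each had 1 rod-only region except *Mdga1* with 2, and the rod means of the strongest were 19.5 to 45.4.

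Against pan-BC the lowest were *Cdc25c* and *Stmn4*, both at 0 in all 3 rod libraries and at 730 to 873 and 565 to 713 in pan-BC, and *Pcp4*, a calmodulin-binding protein gene, with 21.5 to 27.0 in rods and 13710 to 17785 in pan-BC (-9.26 ± 0.15). They were followed by *Mdga1* (-9.25), *Gfod1* (-8.80), *Gstm7* (-8.52), *Erich5* (-8.48), *Tpbgl* (-8.48), *Eef1a2* (-8.32) and *Gabrr1* (-7.98). *Gabrr1*, a subunit gene of the GABA receptors of bipolar cell terminals, held 49.5 to 76.7 in rods, 135 to 190 in blue cones and 14724 to 16325 in pan-BC, and its rod-only region 15.5 kb from the start site had a rod mean of 39.6. In each of these 10 genes the rod libraries lay below all pan-BC libraries, which follows from their choice as the lowest and is no separate result.

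Of the bipolar list 1 gene was higher and 9 lower than in blue cones, and 1 (*Lrit3*) higher and 23 lower than in pan-BC. Of 13 tested genes of other retinal cells, 1 was higher (*Pecam1*) and 2 lower (*Apoe* and *Pou4f1*) than in blue cones, and 2 higher (*Pecam1* and *Slc6a9*) and 3 lower (*Gad1*, *Gad2* and *Tfap2b*) than in pan-BC. From these lists 3 genes had rod-only regions. *Prkca*, a protein kinase C gene that marks rod bipolar cells, had an intronic region 1.10 kb from its start site with 67.0 and 56.9 reads in rods, 10.1 to 27.7 in cones and 8.08 to 19.0 in bipolar cells. Its RNA stood at 978, 1085 and 997 in rods and at a mean of 163 in blue cones and 5466 in pan-BC, and it was called higher than in blue cones (2.68, adjusted p 0.011) and lower than in pan-BC (-2.42, adjusted p 0.011). *Nyx*, which encodes nyctalopin of ON-BC dendrites, had an intronic region with 24.9 and 31.2 in rods and 0 to 8.80 elsewhere and was far below pan-BC in RNA (-7.71). *Pecam1*, an endothelial adhesion gene, had 2 regions with rod means of 26.5 and 21.3. Its RNA was at 194, 94.2 and 92.9 in rods and at means of 8.77 in blue cones and 11.8 in pan-BC (log2 fold changes 3.78 and 3.29), while *Cldn5*, a further endothelial marker, was at 0, 6.15 and 8.65 in rods. The part of other cells in this was not tested.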

How the data were processed

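ATAC-seq and RNA-seq were made from sorted retinal cells, and groups were taken from the labels. Per the study's methods and the submitters' processing notes, ATAC-seq reads were aligned to GRCm38 (mm10) with Bowtie2 (2.2.5 in the submitters' notes, another version in the methods), duplicates were removed with Picard 2.19.0, fragments of at most 150 bp were kept, and MACS2 2.1.1 called peaks in each library. RNA-seq reads were aligned with STAR 2.7.0d and counted with HTSeq, whose strand setting is not given in the sources used here. The deposited tables hold normalized signal, in which the authors divided counts by 1 factor per library, and all 1212862 ATAC-seq and 230384 RNA-seq values above 0 were whole reads within 0.01 read once that factor was undone. The deposited peak lists give a −log10 p and q, a fold enrichment at the summit and a score that is 10 times the −log10 q, each for a whole peak that may be broader than a region.

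A peak had to contain the centre of a region. The nearest gene was that of the nearest start site among 45756 RefSeq transcripts (GRCm38.p6), and sequence and masking were read from that genome with pysam 0.24.0. RNA differences were tested on log2(normalized reads + 1) with limma 3.58.1 (R 4.3.3) in a fit of all 15 libraries, after a filter on low counts that left 14024 of 24062 genes, against a 2-fold difference at an adjusted p of 0.05 (Benjamini-Hochberg), so that fold changes of low genes are understated. The paper describes the RNA libraries as biological replicates, and labelled ages differ between libraries of ON-BC, of OFF-BC and in part of pan-BC. Rod and blue cone libraries share 1 age, and nothing in their labels says that they came from separate animals. P-values measure the spread between these libraries. Intervals of shares are 95% Wilson intervals and cover counting error only. Genes named are those of the lists with rod-only regions, the 10 with the most regions, those nearest to the 15 strongest regions, and the 10 highest and 10 lowest called per comparison. Some genes and regions that this rule names are not reported here. Members and lists were chosen with earlier results of these data known. The limma test of RNA was tried on simulated counts. As alternatives, edgeR 4.0.16, DESeq2 1.42.0 (both on recovered reads), other pseudocounts, filters, scalings, peak thresholds and left-out libraries were tried.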

Additional observations from a re-analysis of the deposited data

How the results depend on the processing

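With a −log10 q of at least 10 in both rod libraries 1015 regions remained, and with 1 library left out of the rule there were 2404 to 4528, the highest without rod library 1 (4528) and next without rod library 2 (3275). Within 500 bp of a start site lay 2.05%. TAATCC was in 38.9% of the regions with the stricter q and in 30.6% within the central 100 bp, and TGCTGA in 23.2% and 12.3%. In that window all regions held them in 16.2% and 9.65%. Of 72 motif shares under alternatives 18 left the 95% interval of the main share, 11 of them in this shorter window. At the stricter q, 39 regions had a peak in double-sorted green cones, and 112, 39, 233 and 95 of 751 genes were higher or lower than blue cones and higher or lower than pan-BC. Tested against no difference rather than 2-fold, the counts were 676, 350, 783 and 448 (44.7%, 23.1%, 51.8% and 29.6% of the genes), where over all genes the shares were 27.2%, 30.4%, 35.4% and 44.2%. Leaving out 1 library gave 167 to 208, 78 to 94, 398 to 410 and 225 to 233. The other counts stayed within 1.5 times the main ones, at 228, 113, 489 and 255 with edgeR, 184, 88, 409 and 229 with DESeq2, and 166, 99, 333 and 289 with library totals alone. Chosen after seeing the data, regions not mostly masked gave 168, 81, 361 and 203, genes that contain the region 153, 72, 321 and 184 of 1200, and a fit without ON-BC and OFF-BC 200, 88, 430 and 239, with 8 of 150 named calls changed. No value changed direction.

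Nothing in the labels pairs replicates of rods with those of blue cones or pan-BC beyond their number. Deviations of same-numbered rod and blue cone libraries had correlations of 0.029 to 0.081, and of rod and pan-BC libraries of -0.029 to 0.022. Same-numbered ON-BC and OFF-BC libraries share an age, and their correlations were -0.076 to 0.222. With the replicate block the counts were 191, 92, 424 and 239, and 0 of 150 named calls changed. Of 150 calls on named genes, 40 changed under at least 1 alternative, and 16 when the test against no difference is left out. The rod medians rest on 36 and 42 reads per region, which limits the precision of single regions.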

Other observations

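The mostly masked regions shared stretches of sequence. The word GCCAGAAGAGGGCA, chosen after seeing these sequences, was in 50 of the 448 mostly masked rod-only regions (11.2%), in 348 of 3607 other mostly masked regions of the table (9.65%), and in 12 of the 1942 remaining rod-only regions. Its share in masked regions was thus close to that in masked regions elsewhere.

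Regions open in a single population differed in the words they held, although pan-BC share cells with ON-BC and OFF-BC, so that the bipolar sets are not of separate cell types. TAATCC was in 36.9% of rod-only regions, 35.2% of the regions of blue cones alone, 27.1% of green cones alone, 20.1% of pan-BC alone, 31.5% of ON-BC alone and 15.6% of OFF-BC alone. The CTCF motif was in 2.59%, 0.547%, 0.0902%, 5.26%, 0% and 2.67% of the same sets, in that order.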
